A study of Mus musculus with 16 samples.

Results

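The mRNAs that encode the proteins of the cytosolic ribosome were followed in the quadriceps muscle of aged mice fed ursolic acid or tomatidine. The members were all genes whose symbol on the array platform is Rpl or Rps followed by a digit, together with Rpsa, Rplp0, Rplp1 and Rplp2, and without the ribosomal S6 kinases and the pseudogenes. This rule found 66 of 16593 named genes, and the probe with the highest mean over the arrays stood for each gene. Of the 66, 35 encode proteins of the large subunit, 23 encode proteins of the small subunit and 5 encode paralogs (Rpl3l, Rpl22l1, Rpl36al, Rpl39l and Rps27l). The other 3 (Rps19bp1, Rpl7l1 and Rps23rg1) share the symbol but are not themselves parts of the mature ribosome. Several ribosomal protein genes, Rpl11 among them, were not analysed here.

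The ribosome is built from a large subunit, which joins amino acids, and a small subunit, which reads the mRNA. Mammalian cells make its proteins in near-equal amounts, and most of their mRNAs begin with a C followed by a run of pyrimidines, the terminal oligopyrimidine start, through which the kinase mTORC1 controls their translation. In skeletal muscle the number of ribosomes sets much of the capacity to make protein, and adult striated muscle uses a paralog of its own, Rpl3l, in place of much of its Rpl3.

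Each of 16 male C57BL/6 mice gave 1 Illumina BeadChip array. The diets were started at an age of 22 months and the muscles were taken 2 months later, at 24 months, so no young animals enter these comparisons. 5 mice ate standard chow (control), 6 ate chow with 0.27% ursolic acid, a plant triterpenoid, and 5 ate chow with 0.05% tomatidine, a steroidal alkaloid from tomato plants. Because the doses differ, ursolic acid and tomatidine are not compared at matched dose. Values are log2 signals as deposited, and a change is the log2 mean of one group minus that of another, with its standard error (SE) from a limma fit over all 16 mice. A gene is said to rise, fall or change where its unadjusted 2-sided p was 0.025 or less, and adjusted p values are Benjamini-Hochberg values over all 25697 probes, with a second threshold of 0.1. Each replicate is a separate mouse, and the p values reflect the spread among these animals. In bulk muscle, fewer cells of a type and less RNA per cell cannot be told apart.

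The arrays correlated with r from 0.990 to 0.998, and 0 of 120 pairs held identical values. Tomatidine mice 3 and 4 lay at 7.11 and 14.56 on the leading principal component (25.7% of the variance), against -6.34 to 5.84 for the control mice. Probes with a mean log2 signal under 8.5, 76.8% of all probes, are called dim here and the others bright, and signals of dim probes lie close to the lowest on the array, 7.87 to 7.90. Markers of skeletal muscle fibres were bright: the mean over 7 of them (Ckm, Acta1, Tnnt3, Myh4, Myh1, Mylpf and Pvalb) lay between 14.12 and 14.39 in every mouse. Of the 66 members, 54 were bright and 12 dim, and their mean signals ran from 7.96 to 14.72 with a median of 12.25. A signal depends on the probe as well as on the mRNA, so levels are compared between mice and not between genes. Probes of ribosomal protein genes may also bind transcripts of their many processed pseudogenes, which was not tested.

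The starts of the genes are shown first, since a terminal oligopyrimidine start is known for most ribosomal protein mRNAs. Some other mRNAs, such as those of elongation factors, have one as well. RefSeq (GRCm38.p6) held an annotated start for 57 of the 66 members, with 68 starts in all. The sequences below run from 15 bases before to 15 bases after the start, 5′ to 3′, with the run of C and T that begins at the start in capitals. The first 3 belong to genes that fell with ursolic acid, Rpl35 and Rpl38 hold the same kind of start but did not pass the test, and Rpl5 fell with ursolic acid and has no such run at its annotated start.
Rpl28: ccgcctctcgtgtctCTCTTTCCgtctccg
Rps10: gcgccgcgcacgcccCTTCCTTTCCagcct
Rps15a: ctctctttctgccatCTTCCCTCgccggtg
Rpl35: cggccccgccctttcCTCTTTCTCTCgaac
Rpl38: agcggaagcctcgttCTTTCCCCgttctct
Rpl5: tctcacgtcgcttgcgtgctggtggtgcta

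These windows lie at chr7:4792950-4792979 on the plus strand for Rpl28, at chr17:27635230-27635259 on the minus strand for Rps10 and at chr7:118116133-118116162 on the minus strand for Rps15a. Those of Rpl35, Rpl38 and Rpl5 lie at chr2:39005117-39005146 (minus), chr11:114668565-114668594 (plus) and chr5:107900513-107900542 (plus). A C followed by 4 bases that are each C or T, read on the strand of the gene at the annotated start itself, stood at 16.2% of the members' starts and at 2.51% of all 32851 annotated starts. It was found in 3 of the 8 genes with a start that fell with ursolic acid (Rpl28, Rps10 and Rps15a) and in 8 of the 49 members with a start that did not (Rpl14, Rpl35, Rpl35a, Rpl38, Rplp2, Rps6, Rps21 and Rps27). An annotated start can lie some bases away from the start used in muscle, so a missing run says only that the letters are not at that base. The letters CTTCCG, on either strand within the 300 bases from 250 before to 50 after the start, were in 61.8% of the members' windows, in 54.8% of those of mitochondrial ribosomal protein genes and in 16.9% of all windows.

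With ursolic acid, 9 members fell and 0 rose. They were Rpl5, Rpl12, Rpl22, Rpl28, Rpl29 and Rpl37a of the large subunit, Rps10 and Rps15a of the small subunit, and the paralog Rps27l, and their log2 changes ran from -0.29 to -0.10. On a linear scale the signal of Rpl5, the lowest, fell by 18.3%. The 9 are 13.6% of the members, beside 2.72% of all probes and 6.15% of bright probes that fell. Of bright members alone 8 of 54 fell, 14.8%. Rises were found for 2.58% of all probes and 6.05% of bright probes. Only Rpl28 also passed at an adjusted p of 0.1, and it is 1 of just 2 probes in all that did (0.00778%). The members' median change was -0.02, with 48 of 66 below 0, and the median over all probes was 0.00, with 50.1% below 0. By subunit, 6 of 35 large subunit genes, 2 of 23 small subunit genes and 1 of 5 paralogs fell.

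**Figure D1:**
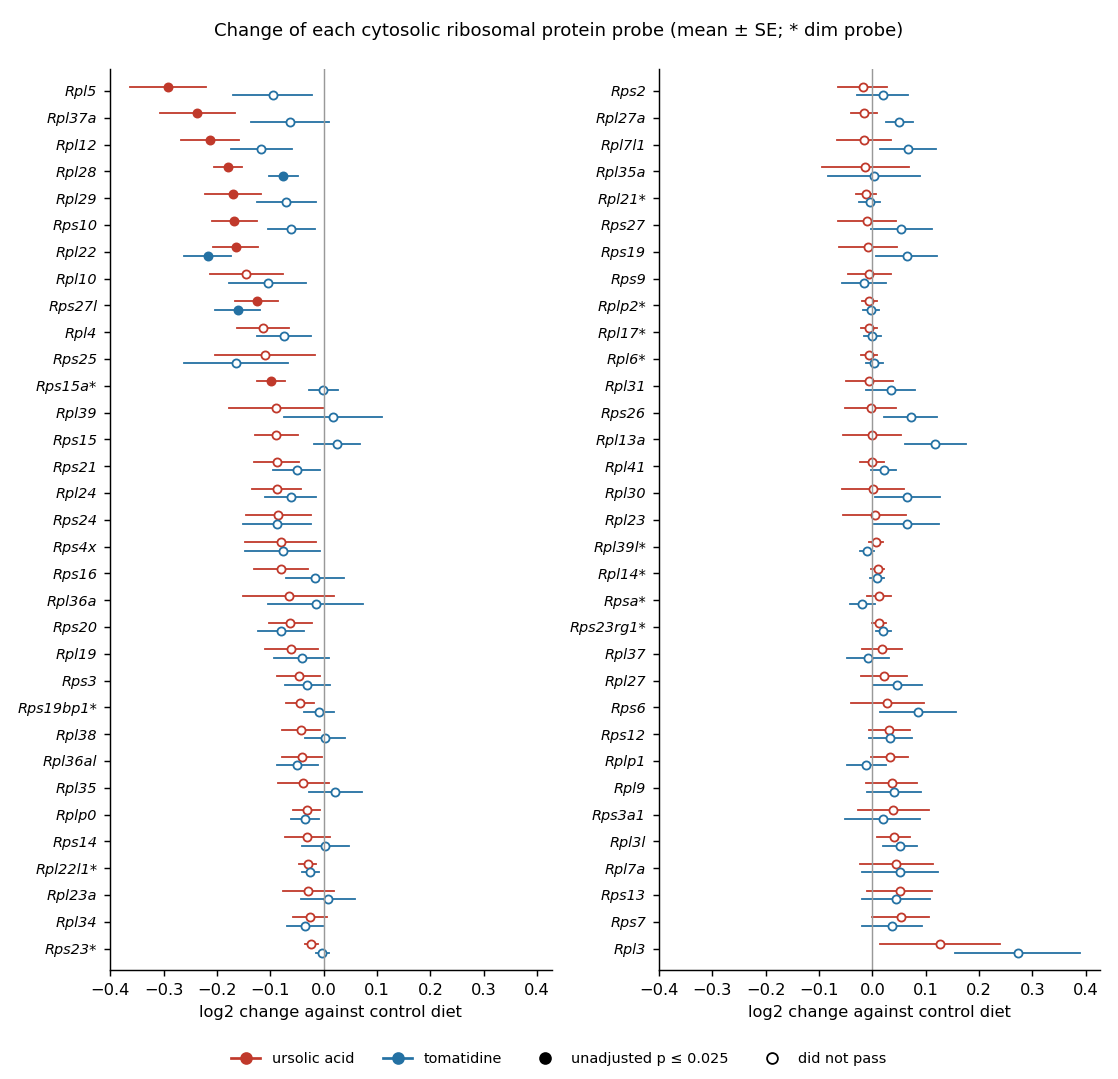
Log2 change of each member's probe against control diet (horizontal axis, log2 units) with ursolic acid (red) and tomatidine (blue), as the difference of group means ± SE over 6 or 5 treated and 5 control mice, with genes ordered by the ursolic acid change. Filled points passed an unadjusted p of 0.025, asterisks mark dim probes, and all filled points (9 with ursolic acid and 3 with tomatidine) lie below 0.

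Rpl28, a large subunit protein found in eukaryotes and not in bacteria, had the smallest p value. It read 13.08, 13.11, 13.05, 13.18 and 13.05 in control mice 1 to 5. With ursolic acid its lowest value was 12.87, its median 12.91 and its highest 13.00, and with tomatidine it read 13.05, 13.05, 12.97, 13.01 and 13.01. Every ursolic acid mouse lay below every control mouse, and the tomatidine mice lay between, overlapping both. Ursolic acid changed it by -0.18 (SE 0.03, adjusted p = 0.0678), with a 95% interval of -0.24 to -0.12. With 1 mouse left out at a time its adjusted p ran from 0.0124 to 0.253, on either side of 0.1. With tomatidine it was -0.08 (SE 0.03, adjusted p = 0.412), a fall that was lost when control mouse 2 or 4, or tomatidine mouse 3 or 5, was left out. It was lost as well in the methods' t-test, with unequal variances, with an intensity trend and robust estimates, without dim probes, and without tomatidine mice 3 and 4 together. The compounds differed by -0.10 (SE 0.03, adjusted p = 0.764), lower with ursolic acid.

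Rpl5 binds 5S rRNA together with Rpl11 before both enter the large subunit, and when free it inhibits the ubiquitin ligase Mdm2. Its signal was 12.36, 12.32, 12.24, 12.30 and 12.30 in control mice. The ursolic acid mice ran from 11.92 through a median of 11.99 to 12.14, and the tomatidine mice read 12.42, 12.20, 12.39, 12.02 and 12.03. Ursolic acid and control did not overlap, while tomatidine mice 1 and 3 lay above all control mice and mice 4 and 5 within the ursolic acid range. Its change of -0.29 with ursolic acid (SE 0.07, adjusted p = 0.236) was the lowest among the members, and with tomatidine the value was -0.10 (SE 0.07, adjusted p = 0.765).

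Rpl12 sits at the base of the stalk on which elongation factors land. Control mice gave 12.22, 12.53, 12.27, 12.42 and 12.19. Ursolic acid mice gave 12.00 at the lowest, 12.13 at the median and 12.17 at the highest, and tomatidine mice gave 12.24, 12.14, 12.27, 12.20 and 12.19. All ursolic acid mice again lay below all control mice, by a narrow margin, since control mice 2 and 4 were well above the other 3. The change was -0.21 (SE 0.05, adjusted p = 0.249), and it did not pass when unequal variances were allowed. With tomatidine it was -0.12 (SE 0.06, adjusted p = 0.561).

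Rpl37a, a zinc-finger protein of the large subunit, read 12.39, 12.55, 12.45, 12.34 and 12.23 in control mice. With ursolic acid it ran from 11.96 through 12.16 to 12.32, and with tomatidine it read 12.39, 12.48, 12.40, 12.14 and 12.23. The groups overlapped, with 1 ursolic acid mouse inside the control range. Its changes were -0.24 with ursolic acid (SE 0.07, adjusted p = 0.326) and -0.06 with tomatidine (SE 0.07, adjusted p = 0.867).

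Rpl29 is a small basic large subunit protein also known for binding heparin. It was the least even of these genes in the control mice, at 10.91, 11.11, 10.99, 11.15 and 10.77, against 10.77 to 10.86 with ursolic acid (median 10.82). The tomatidine mice read 10.89, 10.97, 10.90, 10.85 and 10.96. Control mouse 5 lay among the ursolic acid mice, and the other control mice lay above them. Its ursolic acid change was -0.17 (SE 0.05, adjusted p = 0.339). A further Rpl29 probe, also bright, gave 0.03 (SE 0.04, adjusted p = 0.906), so the probes of this gene disagree. The fall also did not pass in the methods' t-test, with unequal variances or with the replicate block.

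Rps10 lies in the head of the small subunit near the mRNA entry side, and mutations of it cause a form of Diamond-Blackfan anaemia in people. Control mice read 12.01, 12.18, 11.93, 12.09 and 12.07. The ursolic acid values ran from 11.81 through 11.88 to 12.03, and the tomatidine values were 11.98, 12.01, 12.03, 11.94 and 12.01. Most ursolic acid mice lay below all control mice, and tomatidine lay within the control range. The changes were -0.17 (SE 0.04, adjusted p = 0.249) with ursolic acid and -0.06 (SE 0.04, adjusted p = 0.746) with tomatidine.

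Rps15a, a protein of the small subunit body, has a dim probe, at 8.53, 8.46, 8.5, 8.52 and 8.42 in control mice. With ursolic acid it ran from 8.35 through 8.38 to 8.48, and with tomatidine it was 8.44, 8.49, 8.47, 8.5 and 8.53. Apart from ursolic acid mouse 3, every ursolic acid mouse lay below every mouse of the other groups. The change was -0.10 (SE 0.03, adjusted p = 0.259) with ursolic acid and 0.00 (SE 0.03, adjusted p = 0.998) with tomatidine.

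**Figure D2:**
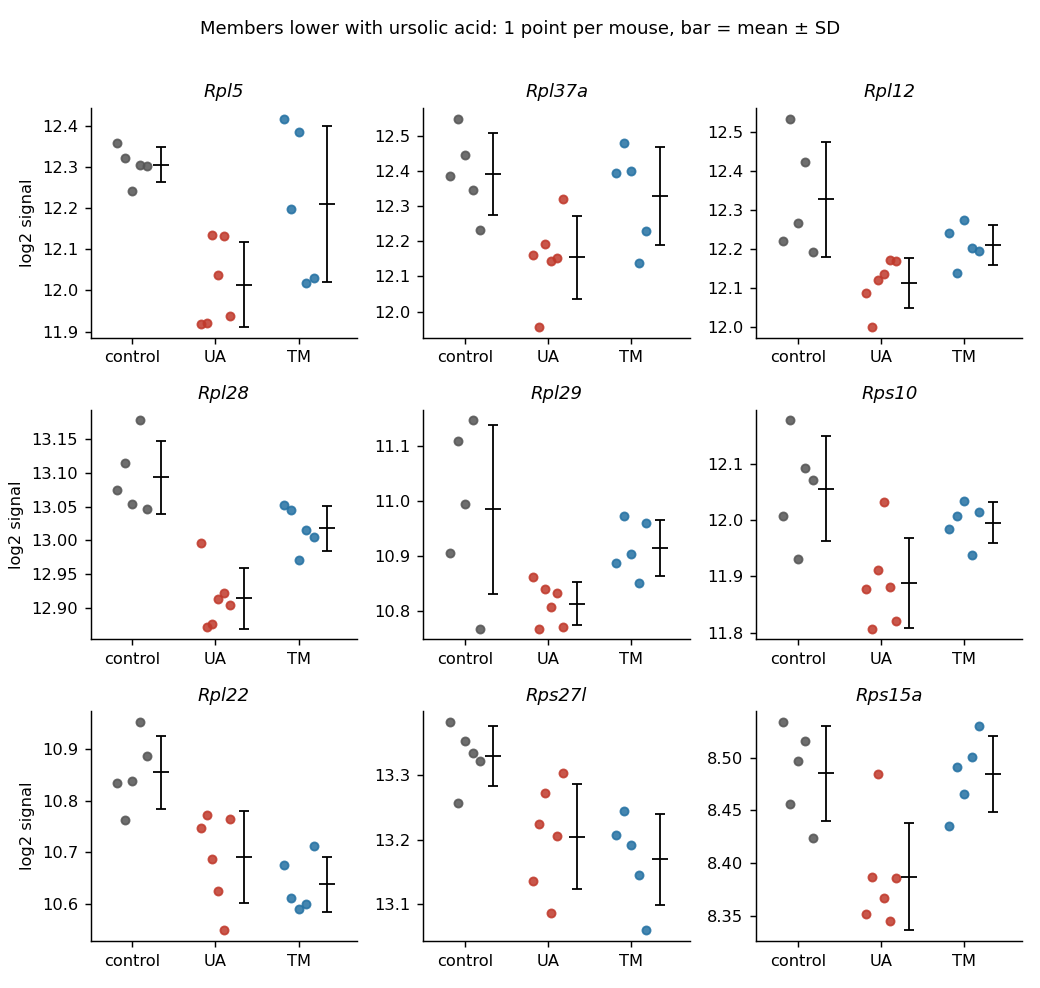
Log2 signal (vertical axis, a separate scale for each gene) of the 9 members that fell with ursolic acid (UA), in control, UA and tomatidine (TM) mice, 1 point per mouse, with bars for the mean ± SD of 5, 6 and 5 mice. For Rpl5, Rpl12 and Rpl28 no UA point reaches the lowest control point, and for Rpl22 and Rps27l no TM point does. These genes were picked by their p values, so such gaps are not further evidence. The share of all probes with such a gap is not given here.

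With tomatidine, 3 members fell and 0 rose: Rpl22, Rps27l and Rpl28, all of which also fell with ursolic acid. The comparisons share the 5 control mice, so these values are set side by side and not counted as separate evidence. The 3 are 4.55% of the members, beside 3.12% of all probes and 7.67% of bright probes that fell, and the members' share of falls was near that background. Rises were found for 2.25% of all probes and 5.38% of bright probes. None of the 66 passed at an adjusted p of 0.1 in limma, as 0.0973% of all probes did. The median change of the members was 0.00, with 34 of 66 below 0. Without control mouse 5, 6 members passed, 5 lower and 1 higher.

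Rpl22 binds cellular and viral RNAs, can be lost without stopping the ribosome, and in mice holds down its own paralog Rpl22l1. It read 10.84, 10.76, 10.84, 10.95 and 10.89 in control mice and 10.68, 10.61, 10.59, 10.60 and 10.71 with tomatidine. With ursolic acid it ran from 10.55 through 10.72 to 10.77. No tomatidine mouse reached the control mice, while the highest ursolic acid mice reached only the lowest control mouse. The changes were -0.22 with tomatidine (SE 0.04, adjusted p = 0.124) and -0.16 with ursolic acid (SE 0.04, adjusted p = 0.256), and the difference between compounds, 0.05 (95% interval -0.04 to 0.14), did not pass. Rpl22l1 lay at 7.99 to 8.04 in control mice on a dim probe, and its changes of -0.03 with ursolic acid and -0.02 with tomatidine did not pass.

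Rps27l is a paralog of Rps27 that is induced by p53 and binds Mdm2. Control mice read 13.38, 13.26, 13.35, 13.34 and 13.32, and tomatidine mice read 13.21, 13.24, 13.19, 13.15 and 13.06. The ursolic acid range was 13.09 to 13.30, with a median of 13.21. Tomatidine did not overlap control, and ursolic acid overlapped it through its higher mice. The changes were -0.16 with tomatidine (SE 0.04, adjusted p = 0.236) and -0.13 with ursolic acid (SE 0.04, adjusted p = 0.341). Its parent Rps27 gave -0.01 with ursolic acid (SE 0.05) and 0.05 with tomatidine (SE 0.06), and neither value passed.

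Rpl3, the core protein near the site of peptide bond formation, and its muscle paralog Rpl3l did not pass in either comparison. Rpl3 read 11.44, 11.28, 11.27, 11.29 and 11.45 in control mice and 11.17, 11.63, 11.74, 11.85 and 11.71 with tomatidine. Tomatidine mouse 1 lay below all control mice and the other 4 above all of them. Its value with tomatidine, 0.27 (SE 0.12, unadjusted p = 0.0345, adjusted p = 0.503), was the highest among the members, and with ursolic acid it was 0.13 (SE 0.11, adjusted p = 0.816). Rpl3 had the widest spread between mice within groups of the bright members, an SD of 0.20. Rpl3l was among the steadier genes, with an SD of 0.05 and values of 0.04 with ursolic acid (SE 0.03) and 0.05 with tomatidine (SE 0.03).

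The other paralogs and their parents did not pass either. Rpl36a, a large subunit protein next to the exit site for tRNA, gave -0.07 with ursolic acid and -0.02 with tomatidine, and its paralog Rpl36al gave -0.04 and -0.05. Rpl39, a very small protein in the wall of the exit tunnel, gave -0.09 and 0.02, and its dim paralog Rpl39l gave 0.01 and -0.01. Rpl10, which joins the large subunit late in its assembly, gave -0.15 (SE 0.07, adjusted p = 0.565) with ursolic acid and -0.11 (SE 0.07, adjusted p = 0.723) with tomatidine. Rps4x, the X-linked copy of a small subunit gene, gave -0.08 with each compound. Rpl41, the smallest of the ribosomal proteins, was the most even of the bright members, with an SD within groups of 0.04 and values of 0.00 and 0.02.

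The acidic stalk proteins, which recruit elongation factors, did not pass in any comparison. Rplp0 gave -0.03 with ursolic acid and -0.03 with tomatidine, Rplp1 gave 0.03 and -0.01, and the dim Rplp2 gave -0.01 and 0.00. Rps6, the substrate of S6 kinase, lay at 11.77, 11.85, 11.60, 11.86 and 11.98 in control mice, and its values of 0.03 with ursolic acid (SE 0.07) and 0.09 with tomatidine (SE 0.07) did not pass. None of the 7 measured genes for proteins around the exit tunnel (Rpl4, Rpl17, Rpl19, Rpl23a, Rpl31, Rpl35 and Rpl39) passed with either compound. All 7 were below 0 with ursolic acid, as were 72.7% of all members. Their values ran from -0.01 for Rpl31 to -0.11 for Rpl4. Of 8 measured genes for proteins of the small subunit head, Rps10 fell with ursolic acid. The lowest value with tomatidine among these 8, -0.16 for Rps25 (SE 0.10), did not pass.

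Directly between the compounds, 6 members were lower with ursolic acid than with tomatidine and 0 were higher: Rpl5, Rps15, Rps10, Rpl28, Rps15a and Rpl27a. The 6 are 9.09% of the members, beside 1.44% of all probes and 2.02% of bright probes that were lower, while 1.5% of all probes and 2.35% of bright probes were higher. None passed at an adjusted p of 0.1, as 0.0117% of all probes did, and their adjusted p values in limma ran from 0.764 to 0.844. The median difference was -0.02, with 49 of 66 members below 0, against 48.2% of all probes. Among the members that passed, the difference was -0.20 for Rpl5 (SE 0.07), -0.11 for Rps10 (SE 0.04) and -0.10 for Rps15a (SE 0.03).

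Rps15, a protein of the small subunit head close to the decoding centre, and Rpl27a, a large subunit protein, passed only in this comparison. Rps15 ran from 11.94 through 12.08 to 12.13 with ursolic acid and read 12.17, 12.21, 12.26, 12.16 and 12.11 with tomatidine. Its groups overlapped at 1 tomatidine mouse, and the difference was -0.11 (SE 0.04, adjusted p = 0.780). Rpl27a ran from 8.96 through 9.04 to 9.08 with ursolic acid and read 9.09, 9.11, 9.17, 9.04 and 9.10 with tomatidine, a difference of -0.07 (SE 0.02, adjusted p = 0.780). A further, dim probe of Rpl27a gave 0.00 (SE 0.01). Several of these calls rested on individual mice: leaving out 1 mouse at a time, Rps10 no longer passed in 12 of 16 cases, Rpl27a in 6, Rpl5 in 5 and Rps15 in 3, while Rpl28 and Rps15a passed in all. With an intensity trend and robust variance estimates only Rpl5 and Rps15a of the 6 passed. The count of 6 became 2 without tomatidine mouse 3 or without ursolic acid mouse 1, and 3 without tomatidine mouse 2 or ursolic acid mouse 2. The 9 falls with ursolic acid against control passed in all such cases, although at an adjusted p of 0.1 the count of 1 ran from 0 to 2.

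**Figure D3:**
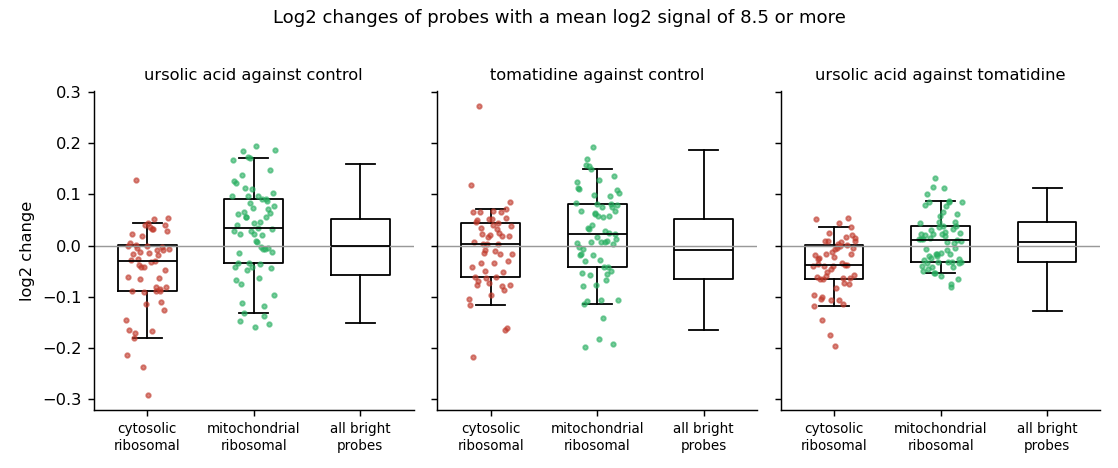
Log2 change (vertical axis) of probes with a mean log2 signal of 8.5 or more in the 3 comparisons. Points, 1 per gene, show the 54 bright members (cytosolic) and 65 mitochondrial ribosomal protein genes, and all 5949 bright probes have a box only. The 54 include Rpl7l1, which is not itself part of the mature ribosome. Boxes span the 25th to 75th percentile with the median, and whiskers reach the 5th and 95th, and the cytosolic medians of -0.03, 0.00 and -0.04 stand beside 0.00, -0.01 and 0.01 for all bright probes.

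Per mouse, the mean over the 54 bright members was 12.36 ± 0.03 in the 5 control mice, 12.31 ± 0.05 in the 6 ursolic acid mice and 12.35 ± 0.02 in the 5 tomatidine mice (± SD). Control mice 1 to 5 read 12.36, 12.38, 12.31, 12.38 and 12.38, and the ursolic acid mice ran from 12.25 through 12.33 to 12.36. The groups overlapped, and ursolic acid mice 1 and 2, at 12.25 and 12.26, were the lowest of the 16. The mean over all 5949 bright probes lay at 9.85 in every one of the 16 mice. Over the 46 bright members that did not fall with ursolic acid, the means were 12.39 in control, 12.37 with ursolic acid and 12.40 with tomatidine, with SDs of 0.03, 0.05 and 0.03. Leaving out the genes that fell brings the ursolic acid and control means closer by construction.

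Within groups, the bright members moved together weakly. Over the 16 mice, each taken as its deviation from its group mean, the mean correlation of a pair of bright members was 0.12, against 0.06 for pairs of bright mitochondrial ribosomal protein genes and 0.00 for pairs of all bright probes. Of 1431 pairs, 918 were above 0. Rps16, of the small subunit head, was closest to the mean of the other members (r = 0.82), and Rpl22 ran against it (r = -0.53), with its lowest pair at -0.82 with Rps20. All points share the same 16 arrays, and these values are descriptions only.

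**Figure D4:**
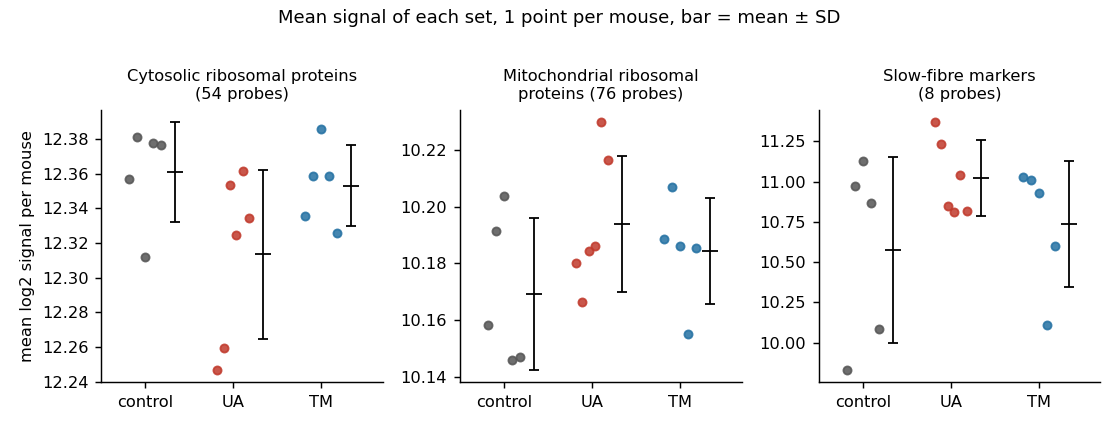
Mean log2 signal per mouse (vertical axis, a separate scale for each panel) in control, ursolic acid (UA) and tomatidine (TM) mice, with bars for the mean ± SD. The panels show the 54 bright members (the cytosolic set, Rpl7l1 included), 76 mitochondrial ribosomal protein probes and 8 slow-fibre markers. UA mice 1 and 2 are the lowest for the cytosolic set and the highest for the slow-fibre markers. Whether the 2 sets are related over all mice was not tested.

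Markers of slow muscle fibres also differed between mice. The mean over 8 of them (Myh7, Myl2, Myl3, Tnnt1, Tnni1, Tnnc1, Tpm3 and Atp2a2) ranged from 9.83 to 11.13 in control mice, from 10.81 to 11.37 with ursolic acid and from 10.11 to 11.03 with tomatidine. It was highest in ursolic acid mice 1 and 2, at 11.37 and 11.23. Its group means were 10.58 in control, 11.02 with ursolic acid and 10.74 with tomatidine. With ursolic acid 7 of the 8 had values above 0 with a median of 0.61, and with tomatidine 7 of 8 with a median of 0.17. Only Atp2a2 passed with ursolic acid and only Tpm3 with tomatidine, both higher. That is 12.5% of the 8 with each compound. With ursolic acid 2.58% of all probes and 6.05% of bright probes rose, and with tomatidine 2.25% and 5.38%. With each mouse's slow-fibre mean as a covariate, a setting added after the data were seen, the same 9 members fell with ursolic acid, and Rpl3, Rplp1 and Rps12 rose by 0.26, 0.08 and 0.08. In that setting the 3 falls with tomatidine also passed, as did a rise of Rpl3 by 0.32 (SE 0.10, adjusted p = 0.221). Between the compounds it gave 6 lower and 1 higher. Rps10 and Rps15 no longer passed, while Rpl29 and Rpl37a passed as lower with ursolic acid. Rplp1 was higher with ursolic acid by 0.08 (SE 0.02, adjusted p = 0.734). Shares of all probes and of bright probes that passed in the covariate setting are not given here. Those of the main fit do not apply to its counts. Of the 7 skeletal muscle fibre markers, Ckm, found in all fibre types, and Myh4, the myosin of fast type IIb fibres, fell with ursolic acid. That is 28.6%, beside 2.72% of all probes and 6.15% of bright probes that fell. Of the same 7 markers 3 were above 0 with ursolic acid, and the median was -0.004. The red blood cell markers measured (Hba-a1 and Alas2) had a mean of 10.80 in control mice (10.36 to 11.21), 11.17 with ursolic acid (11.05 to 11.45) and 11.31 with tomatidine (10.70 to 12.41), and neither passed. With tomatidine 2 of 7 adipocyte markers (Adipoq and Cidec) rose, 28.6% beside 2.25% of all probes and 5.38% of bright probes. However, 2 of the 7 were below 0, and the median of the 7 was 0.01. None of the leucocyte, fibroblast, endothelial or satellite cell markers measured passed in either comparison with control. Directly between the compounds, 2 of 7 adipocyte markers were lower with ursolic acid (Adipoq at -0.45 and Cidec at -0.42). However, 4 of the 7 were above 0, and their median was 0.00. Of 7 fibroblast markers 2 were lower with ursolic acid (Col3a1 at -0.10 and Pdgfra at -0.23). That is 28.6% of the adipocyte and 28.6% of the fibroblast markers, beside 1.44% of all probes and 2.02% of bright probes. All 7 fibroblast markers were below 0, with a median of -0.17. The part of red blood cells, fat, fibroblasts and fast fibres in the ribosomal protein values was not tested.

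The genes that build and drive the ribosome were read from lists, whose shares are set beside those of all and of bright probes given above. Of 37 measured ribosome biogenesis genes, 2 rose and 0 fell with ursolic acid: Sbds, which helps release the factor Eif6 from new large subunits, by 0.18 (SE 0.04, adjusted p = 0.236), and Nip7, a factor in pre-rRNA processing, by 0.09 (SE 0.03, adjusted p = 0.368). That is 5.41% that rose, beside 2.58% of all probes and 6.05% of bright probes. With tomatidine 0 rose and 2 fell (5.41%, beside 3.12% and 7.67%). They were the large subunit assembly factors Rrp1 at -0.05 (SE 0.01, adjusted p = 0.310) and Brix1 at -0.11 (SE 0.04, adjusted p = 0.408). Between the compounds only Brix1 passed, higher with ursolic acid by 0.10 (SE 0.04, adjusted p = 0.798). That is 2.7%, beside 1.5% of all probes and 2.35% of bright probes that were higher. Of 17 elongation factors and other mRNAs with a terminal oligopyrimidine start, none passed with ursolic acid, and Eef1d, a subunit of the exchange factor for Eef1a, fell with tomatidine by 0.08 (SE 0.03, adjusted p = 0.412). Their median changes were -0.02 with each compound. Against control, the share called in either list did not exceed that of bright probes. However, the probes of Eef1a1, Tpt1 and Pabpc1 in the list of 17 are dim, so bright probes are not a like reference. With tomatidine 5.88% of the 17 fell, beside 3.12% of all probes.

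Of 15 measured S6 kinase and mTORC1 genes, only Eif4ebp1 fell with ursolic acid, at -0.44 (SE 0.09, adjusted p = 0.171). It encodes the cap-binding inhibitor 4E-BP1 and is a target of ATF4. That is 6.67% of the list, beside 2.72% of all probes and 6.15% of bright probes, so the share was near that of bright probes. None passed with tomatidine, where Eif4ebp1 gave -0.20 (SE 0.09, adjusted p = 0.529). Between the compounds Eif4ebp1 was lower with ursolic acid, at -0.24 (SE 0.09), and Tsc2, an inhibitor of mTORC1, was higher, at 0.12 (SE 0.04). That is 6.67% in each direction. Of all probes 1.44% were lower and 1.5% higher, and of bright probes 2.02% and 2.35%. Fau, which encodes the small subunit protein eS30 fused to a ubiquitin-like protein and lies outside the symbol rule, had a value of -0.07 against control under ursolic acid (SE 0.04, adjusted p = 0.658) and a fall of -0.11 with tomatidine (SE 0.04, adjusted p = 0.433).

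The mitochondrial ribosome, which translates the few mRNAs of the mitochondrial genome, is made of other proteins. Of 76 mitochondrial ribosomal protein genes, 12 rose and 3 fell with ursolic acid, and 8 rose and 6 fell with tomatidine, with 0 at an adjusted p of 0.1 in limma. With ursolic acid 15.8% rose, beside 2.58% of all probes and 6.05% of bright probes, and 3.95% fell, beside 2.72% and 6.15%. With tomatidine 10.5% rose, beside 2.25% and 5.38%, and 7.89% fell, beside 3.12% and 7.67%, so the falls lay near the share of bright probes. Their median changes were 0.02 with ursolic acid and 0.01 with tomatidine, beside -0.02 and 0.00 for the cytosolic genes. Mrps31 rose by 0.15 (SE 0.03, adjusted p = 0.171) and Mrpl3 by 0.18 (SE 0.04, adjusted p = 0.195) with ursolic acid. With tomatidine, against the same control mice, the rises were 0.13 for Mrps31 (SE 0.03, adjusted p = 0.160) and 0.17 for Mrpl3 (SE 0.04, adjusted p = 0.203). Between the compounds 3 mitochondrial genes were higher and 0 lower with ursolic acid. That is 3.95% higher, beside 1.5% of all probes and 2.35% of bright probes. Of all probes 1.44% were lower, and of bright probes 2.02%. The difference between the cytosolic and mitochondrial sets was not tested.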

How the data were processed

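Quadriceps RNA of 16 mice was hybridised to Illumina Mouse Ref-8 BeadChips with 1 colour per array and extracted by the authors with BeadStudio. The authors deposited normalized log2 signals. How they corrected the background and normalized the arrays, and with which software version, is not given in the sources used here. They were used without further normalization or filter. All 16 value columns were matched to a mouse. The platform's annotation named 23978 of 25697 probes, and 15 members have several probes.

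The fit used lmFit and eBayes of limma 3.58.1 (R 4.3.3), with a mean for each group and 13 residual degrees of freedom, with Benjamini-Hochberg adjustment over all probes. The thresholds, an unadjusted p of 0.025 and an adjusted p of 0.1, follow the methods. No test was made over the members as a set. The members, lists and tests were chosen with earlier results of these data known. Genes were named by a rule: members that passed, with at most 10 in each direction per comparison, the 3 members with the highest and the 3 with the lowest signal, the paralogs and their parents, the stalk, Rpl5, Rps6, Fau, Rps19bp1, and the 2 genes with the smallest p of each other list. Members named for a range, a start sequence, a correlation or a place in a structure were chosen after their values were seen.

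Simulated data, with 200 of 25697 probes changed, were used to test the fit. For ursolic acid against control, a log2 change of 0.1 passed the unadjusted threshold for 82.5% of all changed probes. Of the 42 bright ones among them 28.6% passed, and a change of 0.25 passed for 88.6% of bright ones. At an adjusted p of 0.1 these shares of bright probes were 7.14% and 65.9%. In the other comparisons a change of 0.1 passed the unadjusted threshold for 41.9% of 43 bright probes (tomatidine against control) and 50% of 42 (between the compounds). The number of arrays limits the precision. Start sequences are from RefSeq, GRCm38.p6, and protein sequences were not used here.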

Additional observations from a re-analysis of the deposited data

Results flagged for a closer look

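In 6 of 90 groups of mice checked, over 30 named members, the highest or lowest mouse stood apart from the rest of its group by Dixon's criterion, and chance alone flags about 1 in 20 groups, or 4.5 here. These were Rpl22l1 in ursolic acid mouse 3 (8.04, high), Rpl36al in control mouse 3 (13.49, low), Rpl39l in control mouse 4 (7.93, low), Rps15 in ursolic acid mouse 1 (11.94, low), Rps15a in ursolic acid mouse 3 (8.48, high) and Rps19bp1 in tomatidine mouse 1 (8.20). The difference of Rps15 between the compounds was -0.09 without ursolic acid mouse 1 and no longer passed, and that of Rps15a was -0.12 without ursolic acid mouse 3.

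Signals of 6 members differed between the compounds in the limma fit, each lower with ursolic acid: Rpl5 by -0.20, Rps15 by -0.11, Rps10 by -0.11, Rpl28 by -0.10, Rps15a by -0.10 and Rpl27a by -0.066. None had an adjusted p under 0.1, and the doses of the compounds differ.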

How the results depend on the processing

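Across 520 repeats of the named members' calls, 460 kept their direction and side of the threshold, 60 kept their direction and no longer passed, and 0 reversed. The 9 falls with ursolic acid became 8 with the methods' t-test, 7 with unequal variances and 9 to 11 with 1 mouse left out. At an adjusted p of 0.1 the count for ursolic acid, 1, became 0 with the methods' t-test, with unequal variances, with only the groups compared, with an intensity trend and robust estimates, with the replicate block and without tomatidine mice 3 and 4, became 2 with the slow-fibre covariate, and ran from 0 to 2 with 1 mouse left out. For tomatidine the count of 0 became 1 without dim probes and 1 with the slow-fibre covariate (Rpl22 in the latter), and ran from 0 to 1 with 1 mouse left out, being 1 without tomatidine mouse 1 or ursolic acid mouse 5. The 3 calls with tomatidine ran from 2 to 6, with 6 without control mouse 5 and 2 without control mouse 2. The 6 calls between compounds became 3 with the intensity trend, only Rpl5 and Rps15a of them from the 6, and ran from 2 to 7. The cause was not tested. Mouse numbers showed no clear sign of pairing, although these values cannot decide whether the numbers mark pairs. Same-numbered mice of different groups correlated from -0.24 to 0.32 in their deviations, with 4 of 15 pairs above 0.1. Their median was -0.083, beside 0.005 for mice of different numbers. The replicate block gave 8, 4 and 5 calls for ursolic acid, tomatidine and the difference between them. Log2 changes of the 12 dim members may be compressed near the lowest signal.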

Other observations

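Among the 18 further probes of members, each tested in the 3 comparisons, 2 passed, and they were singled out after their values were seen. Of all probes, 2.72% fell and 2.58% rose with ursolic acid, and 3.12% fell and 2.25% rose with tomatidine. Between the compounds 1.44% of all probes were lower and 1.5% higher with ursolic acid. A dim probe of Rplp0 gave -0.03 with ursolic acid (SE 0.01, adjusted p = 0.341 in limma), close to the value of the probe that stands for the gene. A bright probe of Rpl38 was higher with ursolic acid than with tomatidine, by 0.11 (SE 0.04, adjusted p = 0.780), while the probe that stands for Rpl38 did not pass in that comparison.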
